A study of Homo sapiens with 40 samples.

Results

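HIRA knockdown was compared with control siRNA in SW480, an established colon cancer cell line, by setting the merged CENP-A peaks of the knockdown against the merged CENP-A peaks of the control. The list for HIRA knockdown held 848 peaks and the list for control siRNA held 408, so that 1256 of the 5748 peaks in the 6 lists of the series entered the comparison. Each of the 2 lists merges 4 ChIP libraries, sequenced beside 4 input libraries, by the labels and the methods. Elsewhere the study's text gives 3 replicates, and the lists do not show which libraries entered them. Cells of both groups received siRNA by electroporation and were collected 72 hours later. The sample labels call the control libraries "Untreated", while the study names them control siRNA. Chromatin was cut with micrococcal nuclease without crosslinking. For CENP-A precipitation the study lists an anti-centromere serum, but its description of the ChIP names no antibody. Such a serum recognises CENP-A along with other centromere proteins, so a peak obtained with it would mark chromatin bound by the serum. One cell line and a single set of siRNAs against HIRA were used. The knockdown itself cannot be checked from peak positions, while the study reports depletion of the protein on Western blots. The other 4 lists come from knockdown of DAXX, of HJURP, of HIRA with DAXX and of HIRA with HJURP, and their values are given below beside some of the regions. The double knockdown lists rest on 2 ChIP libraries each, against 4 for HIRA knockdown and for control. Their values are therefore not like for like with those of the other lists.

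CENP-A is the histone H3 variant that marks the active centromere, where it replaces H3 in part of the nucleosomes and recruits the kinetochore. It is delivered to centromeres by the chaperone HJURP. HIRA is a chaperone of another variant, H3.3, and places it mainly in transcribed genes, promoters and other open chromatin, whereas the chaperone pair DAXX and ATRX serves repeats and telomeres. In cancer cells that make more CENP-A than the centromere takes up, part of it is found on the chromosome arms. Human centromeres are built of alpha satellite DNA, a repeat with a short unit, and some of the units carry the CENP-B box, the site bound by the protein CENP-B. The comparison addresses which CENP-A sites are retained, widened, added or missing once HIRA is depleted.

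The sequences below come from the GRCh37 reference, which matches the hg19 build of the peak lists, and show the main kinds of DNA in the comparison. All are read 5′ to 3′ on the plus strand. The first shows 300 bases at chr2:92307630-92307929, inside an intergenic HIRA knockdown peak of 4461 bp over alpha satellite DNA, which lies wholly within a control peak. Capitals mark its CENP-B box.

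kept peak, chromosome 2: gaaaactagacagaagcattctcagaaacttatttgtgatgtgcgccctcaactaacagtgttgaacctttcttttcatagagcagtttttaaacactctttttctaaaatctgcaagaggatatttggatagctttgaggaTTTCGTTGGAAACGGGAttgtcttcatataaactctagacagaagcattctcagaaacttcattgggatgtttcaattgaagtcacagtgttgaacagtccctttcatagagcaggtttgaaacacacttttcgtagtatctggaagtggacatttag

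The next pair shows 2 adjoining alpha satellite units, at chr21:14358819-14358989 and chr21:14358990-14359160, from a new intergenic peak of 2861 bp on chromosome 21. They were chosen because the period of the repeat can be read from them. Capitals in the second unit mark the 16 bases that differ from the first, which leaves an identity of 90.6%.

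new peak, first unit: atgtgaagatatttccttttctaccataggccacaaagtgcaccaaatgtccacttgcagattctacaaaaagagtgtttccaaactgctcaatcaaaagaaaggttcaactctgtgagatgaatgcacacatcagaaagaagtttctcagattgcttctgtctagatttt

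new peak, second unit: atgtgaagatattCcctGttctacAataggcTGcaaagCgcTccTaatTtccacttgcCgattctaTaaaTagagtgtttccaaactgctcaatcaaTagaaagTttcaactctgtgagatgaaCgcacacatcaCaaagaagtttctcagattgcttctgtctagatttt

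A second new peak of chromosome 21, 4032 bp wide and intergenic, is made of a different satellite, a tandem repeat of CATTC. Capitals at chr21:10821884-10822183 mark matches of 2 copies of GAATG in a row, taken one after the other without overlap, the other strand of CATTC.

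new peak, CATTC repeat: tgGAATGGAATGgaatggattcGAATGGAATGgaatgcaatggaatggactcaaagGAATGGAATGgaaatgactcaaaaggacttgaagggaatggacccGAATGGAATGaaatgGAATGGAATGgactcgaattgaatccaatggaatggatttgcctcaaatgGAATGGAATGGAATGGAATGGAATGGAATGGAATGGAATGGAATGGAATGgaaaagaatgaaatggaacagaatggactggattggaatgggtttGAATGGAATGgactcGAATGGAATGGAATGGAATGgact

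The last sequence is from a gene and not from a satellite. It lies at chr12:26918154-26918453, in an intron of ITPR2, and belongs to a new peak of 1732 bp on the short arm of chromosome 12. It has none of the repeats above and is printed without capitals.

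new peak, ITPR2: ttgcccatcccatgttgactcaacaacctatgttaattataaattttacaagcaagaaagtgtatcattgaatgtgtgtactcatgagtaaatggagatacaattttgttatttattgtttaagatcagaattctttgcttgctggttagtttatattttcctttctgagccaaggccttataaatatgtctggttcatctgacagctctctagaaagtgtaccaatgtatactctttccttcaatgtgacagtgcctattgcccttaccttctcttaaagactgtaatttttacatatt

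HIRA knockdown left most control sites in place and added more peaks than the control list held. Of the 848 HIRA knockdown peaks, 478 shared no base with a control peak and are called new here, which is 56.4% of the list (95% Wilson interval 53 to 59.7%). The remaining 370 shared at least 1 base with control. In the other direction, 64 of 408 control peaks had no base in the HIRA list and are called lost, a share of 15.7% (95% Wilson interval 12.5 to 19.5%). These intervals, here and below, cover counting error only. Since each condition is 1 merged list with no score, count or replicate, the spread between replicates cannot be set against any of these differences, and no test between the conditions was possible.

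In bases, the HIRA list covered 905.7 kb and the control list 552.7 kb, a ratio of 1.64, against a ratio of 2.08 for the number of peaks. The 2 lists had 442.0 kb in common. New peaks made up 363.4 kb of the HIRA list, and a further 100.3 kb lay beside the control bases within shared peaks, so that 40.1% and 11.1% of HIRA knockdown bases came from new sites and from the flanks of shared sites. The control list held 110.7 kb outside HIRA knockdown peaks, of which 48.0 kb were in lost peaks and 62.8 kb in peaks that were kept in part.

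New and lost peaks had lower median widths than shared and kept ones. The definition itself bears on width, since a wide peak has more bases that can overlap the other list. The median width was 580.5 bp for new peaks, with a range of 180 to 4237 bp, against 974.5 bp for shared HIRA knockdown peaks, which reached 9784 bp. Lost control peaks had a median of 500 bp, with a range of 172 to 7664 bp, and kept control peaks one of 850.5 bp. Many new peaks lay beside old sites: 224 of 478, or 46.9%, were within 10 kb of a control peak, and the median distance was 12.6 kb. A second part lay far off, with 91 new peaks over 1 Mb from any control peak and 5 on chromosome 3, where the control list had no peak at all.

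By chromosome, the numbers were uneven. Chromosome 8 had 98 control and 175 HIRA knockdown peaks, 99 of them new, and chromosome 21 had 51 and 115, with 65 new. Chromosome 12 had 2 control peaks and 66 HIRA knockdown peaks, 65 of which were new. The new share was 98.5% on chromosome 12, while on chromosomes 8 and 21 it was 56.6% and 56.5%, about that of the whole list. On chromosome 15 the number was 4 in control and 24 after HIRA knockdown, and on chromosome 19 it was 10 and 34. The other single knockdowns also had more peaks there than control. Chromosome 15 had 17 after DAXX and 19 after HJURP knockdown. In the same order, chromosome 19 had 29 and 26, and chromosome 21 had 75 and 110. At the other end, chromosome 11 had 12 control and 13 HIRA knockdown peaks with 1 new, and chromosome 10 had 35 and 45 with 11 new. The X chromosome had 12 in each of these lists with 3 new. Chromosome 16 had more peaks after HIRA knockdown, 57 against 38, but nearly equal coverage, 79.2 kb against 79.5 kb.

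**Figure D1:**
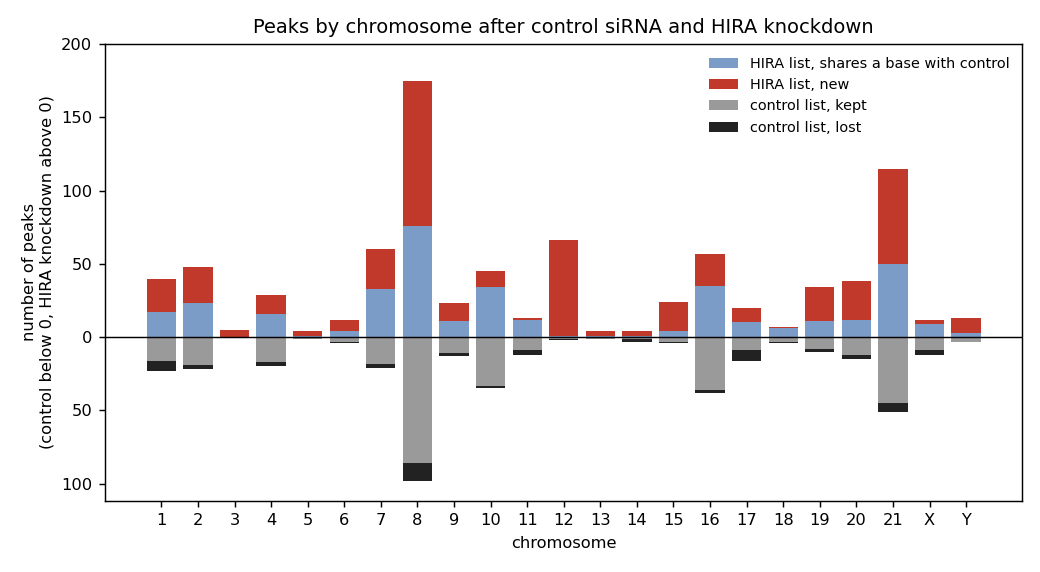
Number of peaks on each chromosome, with HIRA knockdown peaks above 0 (blue, sharing a base with control; red, new) and control peaks below 0 (grey, kept; black, lost). Chromosomes 8, 12 and 21 carried 99, 65 and 65 new peaks, and the bar of chromosome 12 is almost wholly red.

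The short arm of chromosome 12 held a large group of new sites. Between chr12:21882899-27517674, a segment of 5.63 Mb bounded by its first and last peak, the HIRA list had 63 peaks and the control list had none. They were 13.2% of all new peaks and covered 46.3 kb, or 0.82% of the segment, with widths of 220 to 1892 bp around a median of 673 bp. The nearest control peak was 7320.6 kb away, and only 3 other HIRA knockdown peaks lay on the chromosome. The segment was picked out after the values were seen. The copy number of the segment in these cells is not in the peak lists, and its part in the result was not tested.

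Within the segment the peaks were spread over genes and the DNA between them. Of the 63 peaks, 47 (74.6%) lay in an annotated gene, where genes take up 77.6% of the bases of the segment, and 46 (73%) lay in a protein-coding gene, against 61.3% of the bases. Introns held 40 of them, coding exons 4, an untranslated exon 1 and exons of noncoding transcripts 2, while 16 were intergenic. The median spacing from one peak to the next was 32.3 kb, and 18 of the intervals were no longer than 10 kb.

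SOX5, which encodes a transcription factor of cartilage and nerve development, had the most peaks of any protein-coding gene in the comparison, with 16 after HIRA knockdown and 0 in control (chr12:23682438-24715478, minus strand). C2CD5, a C2 domain protein that takes part in insulin-stimulated glucose transporter traffic, had 7 and 0, and its antisense RNA C2CD5-AS1 covers the same peaks. ITPR2, a calcium release channel of the endoplasmic reticulum, had 6 and 0. LMNTD1, named for its lamin tail domain, had 4 and 0. ABCC9, the sulfonylurea receptor subunit of a potassium channel, and ETNK1, an ethanolamine kinase, had 3 and 0 each. None of these genes had a control peak in any part.

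The widest peak of the segment, 1892 bp at chr12:27180837-27182728, reached a coding exon of MED21, a subunit of the Mediator complex. The next widest were 1732 bp in an intron of ITPR2, from which the sequence above was read, and 1640 bp in an intron of ABCC9 at chr12:21971782-21973421. All 63 were AT-rich or near the genome level, since the GC content of the 1 kb around their centres ran from 27.6 to 40.1%, where the median of all 1 kb windows of the genome was 39.9%.

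The segment was not empty in the other knockdowns, which share the control list with HIRA knockdown. It had 23 peaks (16.4 kb) after DAXX knockdown, 32 (20.0 kb) after HJURP knockdown, 25 (5.7 kb) after knockdown of HIRA with DAXX and 20 (3.8 kb) after knockdown of HIRA with HJURP. The double knockdown lists rest on 2 ChIP libraries each, against 4 for HIRA knockdown. The positions were mostly different ones: 44 of the 63 HIRA knockdown peaks had no base in any of the other lists, against 99 of all 478 new peaks (20.7%), a count that includes these 44. Without the segment it was 55 of 415 (13.3%). SOX5 had 6, 7, 6 and 4 peaks in those 4 lists, in the same order.

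**Figure D2:**
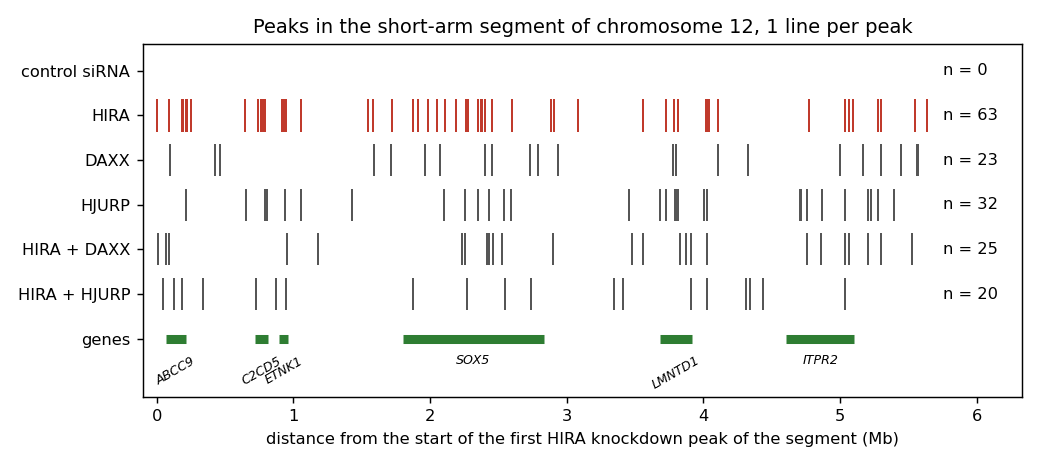
Peaks of the 6 lists along the short-arm segment of chromosome 12, as distance in Mb from its first HIRA knockdown peak; each vertical line is 1 peak (HIRA knockdown in red) and green bars are genes with at least 3 new peaks. The control row is empty and the HIRA row holds 63 peaks, while the other rows hold 20 to 32.

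Other runs of new peaks without any control peak were shorter. With runs defined as at least 5 peaks no more than 100 kb apart and no control peak among them, a definition made after the values were seen, 8 runs were found, 5 of them in the chromosome 12 segment. The other 3 held 20 peaks. One of 6 peaks at chr1:145012583-145118377 covered SEC22B, which encodes a vesicle fusion protein, and PDE4DIP. One of 6 peaks at chr15:20856637-20878423 lay over the pseudogene NBEAP1, and one of 8 peaks at chr21:9420732-9474272 was intergenic. In the same order, these 3 stretches held 5, 3 and 5 peaks after DAXX knockdown and 7, 6 and 4 after HJURP knockdown. They held 1, 2 and 0 with HIRA and DAXX depleted, and 5, 3 and 4 with HIRA and HJURP depleted. SEC22B, PDE4DIP and NBEAP1 are known for near-identical copies, and the part of read placement among copies in these peaks was not tested.

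PRIM2, the large subunit of DNA primase, carried a smaller group on chromosome 6 (chr6:57179603-57513376). It had 2 control peaks (2.9 kb) and 10 HIRA knockdown peaks (9.7 kb), 7 of which were new. The other lists had 1 peak (1.8 kb) after DAXX knockdown, 1 (1.1 kb) after HJURP knockdown, 2 (0.5 kb) after HIRA with DAXX and 0 after HIRA with HJURP. Of the 7 new peaks, 6, such as the widest one of 1870 bp at chr6:57378852-57380721, were in the HIRA list alone, against 20.7% of all new peaks. The peaks of PRIM2 were picked out after their values were seen. The pseudogene PRIM2BP overlaps this region, and read placement was not tested here either.

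At 8q24, the region of the MYC oncogene and of several noncoding RNAs linked to cancer risk, matched sites were wider after HIRA knockdown and new peaks were present. The control list had 81 peaks there, covering 84.5 kb, and the HIRA list had 156, covering 225.4 kb, a ratio of 2.67 in bases. They spanned nearly the same stretch, chr8:126685154-129617129 in control and chr8:126684292-129617249 after HIRA knockdown. New peaks numbered 98 (62.8%), against 56.4% of the whole list, which lies within the 95% Wilson interval of 55 to 70%. The region held 19.9% of control and 18.4% of HIRA knockdown peaks. The other lists had 389 peaks (574.7 kb) there after DAXX knockdown, 372 (565.8 kb) after HJURP knockdown, 220 (106.2 kb) after HIRA with DAXX and 475 (385.6 kb) after HIRA with HJURP. Of the 81 control peaks, 10 were lost (12.3%), against 15.7% of the whole list.

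The new 8q24 peaks filled spaces within the control domain. Their median distance to a control peak was 12.5 kb and the largest was 179.4 kb, and 46 of the 98 (46.9%) were within 10 kb. The median and this share were about those of all new peaks, 12.6 kb and 46.9%. The lncRNA PCAT1, named for its expression in prostate cancer, had 39 control and 69 HIRA knockdown peaks, 46 of them new. LINC00861 had 10 and 34 with 25 new, LINC02964 had 7 and 22 with 16 new, and CASC19 had 15 and 19 with 10 new. CASC8 had 4 and 9 with 7 new, and POU5F1B, a retrogene of the pluripotency factor OCT4, had 2 and 4 with 3 new. These genes overlap one another in part, so a peak can count for more than one of them.

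The widest new peaks of the region were 3369 bp in an intron of PCAT1 at chr8:127951188-127954556 and 3101 bp at chr8:128350314-128353414, which lies in PCAT1, CASC8 and an untranslated exon of POU5F1B. Neither had a base in control, while the DAXX list covered 3309 and 3101 bases of them and the HJURP list 3332 and 3101. The list for HIRA with DAXX covered 747 and 1085, and that for HIRA with HJURP 2624 and 2800. MYC itself had no peak in either list. Its nearest peak was 386.8 kb away in control and 373.0 kb away after HIRA knockdown. PVT1, the lncRNA gene next to MYC, had 2 peaks in each list, and none was new or lost. Of 12 genes of a list of the region found in the annotation, 6 had a peak in each list, 5 had a new HIRA knockdown peak and 5 had a lost control peak. The list was drawn up for this region, and over all annotated genes 0.146% had a HIRA knockdown peak.

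Matched loci, meaning runs of control and HIRA knockdown peaks joined by shared bases, allowed the sites to be compared in width. There were 308 of them, and 247 consisted of 1 peak from each list. HIRA knockdown covered over 1.5 times the control bases in 49 loci (15.9%), called widened, and less than the inverse of it in 28 (9.09%), called narrowed. With a ratio of 1.2 in place of 1.5 the counts were 80 and 69, and with a ratio of 2 they were 33 and 10. The median ratio was 1.00, with a range from 0.13 to 17.73. Most shared sites thus had about the same width in both lists.

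The widened loci were unevenly placed. At 8q24, 32 of 57 loci (56.1%) were widened and 0 were narrowed. Their median ratio was 1.62, and their summed bases were 76.7 kb in control and 126.6 kb after HIRA knockdown, a ratio of 1.65. In the centromere bands, 2 of 92 were widened and 12 narrowed, with a median ratio of 0.92 and sums of 140.1 kb and 126.3 kb. In the remaining 159 loci, 15 were widened and 16 narrowed, and the sums differed little, at 288.0 kb and 289.4 kb.

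**Figure D3:**
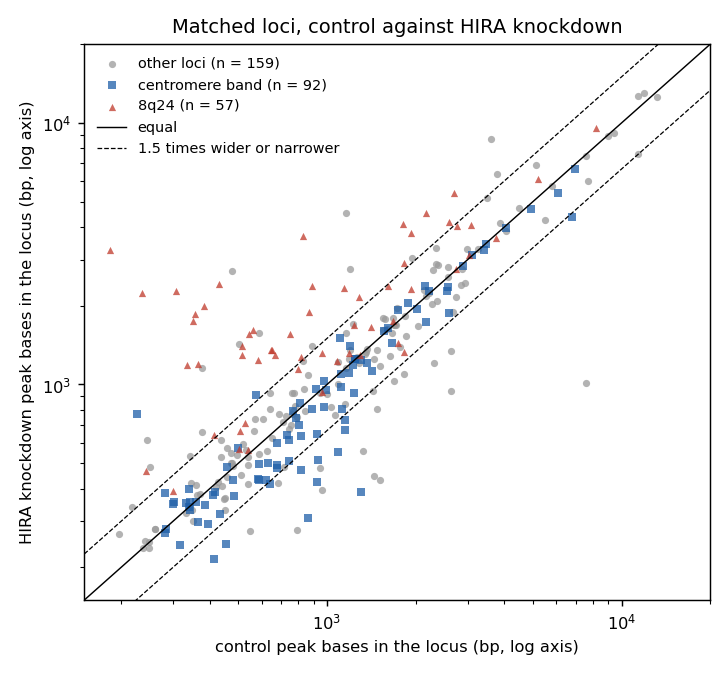
Bases under peaks in each of the 308 matched loci, control on the horizontal and HIRA knockdown on the vertical axis, both logarithmic; the solid line is equality and the dashed lines mark a 1.5 times wider or narrower locus. The 57 loci of 8q24 (red triangles) lie mostly above the line with 32 past the upper dashed line, whereas the 92 loci of the centromere bands (blue squares) follow the line with 12 past the lower one.

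The 5 largest gains in single loci lay on chromosome 21 and at 8q24. A locus at chr21:10845887-10854566 had 3608 bases in control and 8680 after HIRA knockdown, the largest gain of all, and the one beside it at chr21:10854674-10859237 had 1159 and 4531. Both are intergenic, near the centromere gap of the chromosome. The largest ratio, 17.7, was that of a PCAT1 locus at chr8:128060511-128063773, with 184 bases in control and 3263 after HIRA knockdown. The next in gained bases were intergenic loci of 8q24, chr8:129272692-129276389 with 826 and 3698 bases, and chr8:129599145-129604548 with 2689 and 5404. The same 5 loci held 8680, 4504, 3263, 3698 and 5404 bases after DAXX knockdown, and 8043, 3893, 3263, 3698 and 5404 after HJURP knockdown. In the double knockdowns, whose lists rest on 2 ChIP libraries each, the loci held 4626, 1357, 913, 573 and 2162 bases with HIRA and DAXX depleted. With HIRA and HJURP depleted they held 1978, 1097, 3185, 2680 and 5404.

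The 5 largest losses in single loci were intergenic, on chromosomes 7, 10 and 16. At chr16:32534041-32541890, 7547 control bases stood against 1015 after HIRA knockdown, and none of the other 4 lists had a base there. At chr7:61867636-61879066 the values were 11375 and 7593, and at chr7:61079030-61085835 they were 6806 in a single control peak and 4374 in 5 HIRA knockdown peaks. Loci at chr16:33980754-33988479 and chr10:42531278-42533923 had 7705 and 5981, and 2639 and 944. Some of these sites were broken into several peaks after HIRA knockdown. In the same order, the loci after the first held 11431, 4056, 7484 and 1297 bases after DAXX knockdown, and 6399, 2342, 5964 and 1051 after HJURP knockdown. They held 175, 1744, 2933 and 322 with HIRA and DAXX depleted, and 2730, 1596, 3461 and 450 with HIRA and HJURP depleted.

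The share of new sites differed with distance to the centromere. Within 1 Mb of the centromere gap, the long unsequenced stretch of the reference, the lists had 261 control and 454 HIRA knockdown peaks, of which 197 (43.4%, 95% Wilson interval 38.9 to 48%) were new. From 1 to 5 Mb there were 47 and 123, and 80 of the latter (65%) were new. Beyond 5 Mb there were 100 and 271, with 201 new (74.2%, 68.6 to 79%), and coverage was 103.6 kb in control and 306.0 kb after HIRA knockdown, a ratio of 2.96. The share of new peaks was higher in each class farther from the gap, although the intervals of the outer classes overlapped. Without 8q24 and the chromosome 12 segment, 40 of 52 peaks beyond 5 Mb were new (76.9%), but the ratio of coverage was lower without them, 1.81, and 7 of 19 control peaks there were lost (36.8%), against 17% with them.

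In the centromere bands, 119 control peaks (155.8 kb) stood against 207 HIRA knockdown peaks (198.8 kb), and 89 (43%) were new. Outside them, 289 (396.9 kb) stood against 641 (706.9 kb), and 389 (60.7%) were new. Of the 5 widest new peaks outside chromosome 8, 3 lay in a band, as neighbours on chromosome 19. They measured 4237 bp at chr19:24557702-24561938, 3721 bp at chr19:24562005-24565725 and 2954 bp at chr19:24565793-24568746, with no control base. The DAXX list covered 4237, 3721 and 1909 bases of them, and the HJURP list 3324, 3205 and 1816. On the other side of this centromere the 8 peaks at chr19:27731890-27740332 were all shared with control, while the 12 peaks at chr19:27836672-27894503 were all new. Both of these blocks were picked out after their values were seen. Near the chromosome ends, within 1 Mb, the control list had 1 peak and the HIRA list 15, of which 14 were new, 8 on chromosome 4 and 6 on chromosome Y.

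Sequence set kept and new peaks apart as well. The 3 features below were looked for in the 1 kb centred on each peak: the alpha satellite period, scored as at least 50% identity of the window with itself moved by 1 repeat unit; the CENP-B box, read as TTCG, 4 free bases, A, 2 free bases and CGGG; and 2 copies of CATTC in a row, called the CATTC string. The box and the string were sought on both strands. Of all 2858365 such windows of the genome without unknown bases, 0.103% had the period, 0.0535% the box and 0.414% the string. The period and the box were found together in 76 HIRA knockdown peaks, and the string was found with neither. A match describes the reference sequence and not a bound site.

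The CENP-B box was in the windows of 107 of 370 shared HIRA knockdown peaks (28.9%, 95% Wilson interval 24.5 to 33.7%) and of 17 of 478 new ones (3.56%, 2.23 to 5.62%). Among peaks of at least 500 bp, a limit added after seeing the data, it was 22.4% of shared and 0.733% of new ones (2 of 273). The alpha satellite period was in 28.6% of shared peaks and 8.16% of new ones. Read the other way, 17 of 124 HIRA knockdown peaks with the box were new (13.7%), and 39 of 145 with the period (26.9%), against 56.4% of all. Of these 3 classes, only peaks with the box summed to less after HIRA knockdown, 103.8 kb against 127.3 kb, although they numbered 124 against 98. Each peak is classed by the window at its own centre, so both sums need not cover the same sites. The CATTC string differed less, with 17.8% of shared and 13.2% of new peaks (intervals 14.3 to 22.1% and 10.4 to 16.5%). None of the 3 features was in 367 new peaks (76.8%), against 159 shared ones (43%).

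**Figure D4:**
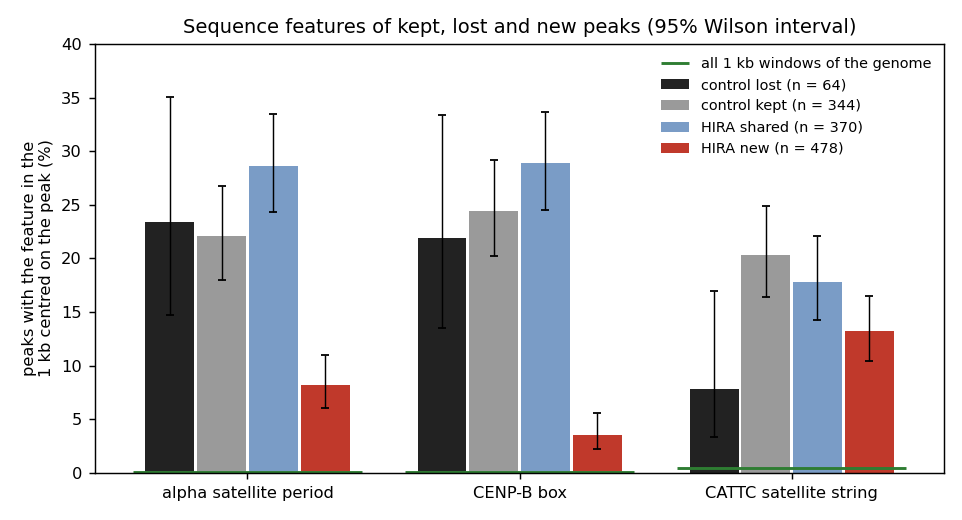
Share of peaks with each sequence feature in the 1 kb around the peak centre, for lost and kept control peaks and for shared and new HIRA knockdown peaks; error bars are 95% Wilson intervals and the green line is the share among all 1 kb windows of the genome. New peaks (red) had the alpha satellite period in 8.16% and the CENP-B box in 3.56%, below the 28.6% and 28.9% of shared peaks.

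None of the 3 features was seen in the 156 HIRA knockdown peaks of 8q24 or the 63 of the chromosome 12 segment, which allows a share of up to 2.4% and 5.75% by the upper Wilson limit. Without these peaks, 5.36% of new peaks had the box and 12.3% the period. Among new peaks within 1 Mb of the centromere gap, 8.12% had the box, against 38.9% of shared peaks at the same distance, and the intervals of 5.06 to 12.8% and 33.2 to 45% were apart. Lost control peaks had the box in 21.9%, close to the 24.4% of kept ones (intervals 13.5 to 33.4% and 20.2 to 29.2%). The CATTC string was in 7.81% of lost and 20.3% of kept control peaks (intervals 3.38 to 17% and 16.4 to 24.9%).

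Peaks in genes were more often new than peaks between genes. Annotated genes of any kind held 125 control and 326 HIRA knockdown peaks, 242 of them new (74.2%), and intergenic DNA held 283 and 522, 236 of them new (45.2%). Seen over the new peaks, 50.6% lay in a gene, where genes take up 57.3% of the reference. In introns there were 83 control and 263 HIRA knockdown peaks, with 200 new (76%). Protein-coding genes had 27 and 96, with 82 new (85.4%, 95% Wilson interval 77 to 91.1%), and 46 of the latter were in the chromosome 12 segment. Those 82 were 17.2% of all new peaks, where protein-coding genes take up 42.2% of the reference. Outside 8q24 and chromosome 12, 20 genes had at least 3 new peaks, and 15 of them are not protein-coding, which holds for 68.7% of all annotated genes.

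**Figure D5:**
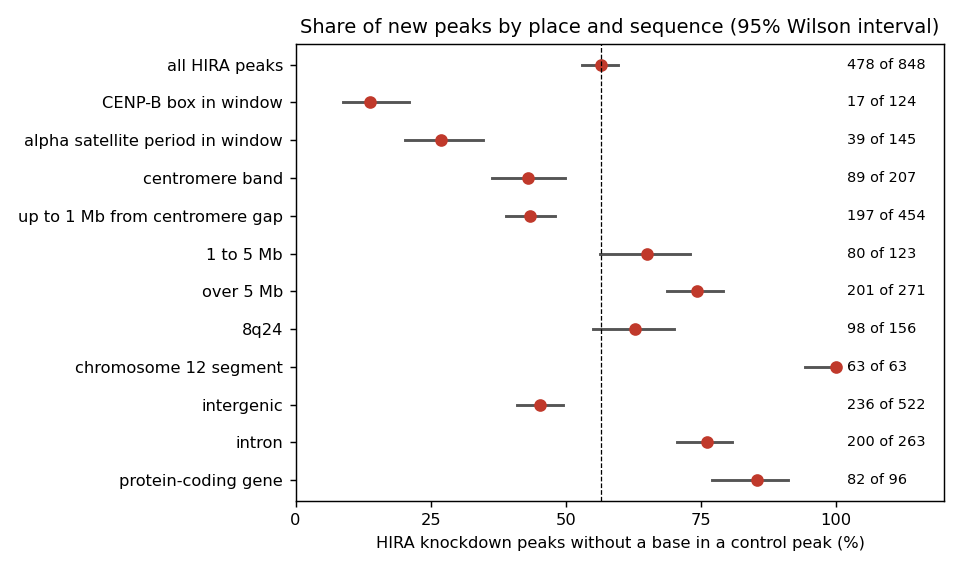
Share of HIRA knockdown peaks that shared no base with a control peak, by sequence, place and gene class; points are shares, lines are 95% Wilson intervals, the dashed line is the share over all peaks and the counts stand at the right. The share ran from 13.7% for peaks with a CENP-B box to 74.2% beyond 5 Mb from the centromere gap and 85.4% in protein-coding genes, and reached 63 of 63 in the chromosome 12 segment.

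Among those genes, BAGE2, a pseudogene of a melanoma antigen family on chromosome 21, had 7 control and 18 HIRA knockdown peaks, 11 of them new. FRG1BP on chromosome 20, a pseudogene of FRG1, had 3 and 11 with 8 new, and HERC2P3 on chromosome 15, a pseudogene of the ubiquitin ligase gene HERC2, had 3 and 9 with 6 new. KMT2C, which encodes a histone H3 lysine methyltransferase and shares sequence with BAGE2, had 0 and 3. ZNF717, a zinc finger gene, also had 0 and 3. After DAXX and HJURP knockdown, BAGE2 had 11 and 10 peaks, FRG1BP 7 and 8, and HERC2P3 8 and 8. In the same order, KMT2C had 4 and 3, and ZNF717 had 7 and 8. The counts of single copies are uncertain, since read placement between them was not tested.

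Lost peaks included a set at the starts of protein-coding genes. Of 13 control peaks that reached a coding or untranslated exon of a protein-coding gene, 10 were lost (76.9%, 95% Wilson interval 49.7 to 91.8%), against 15.7% of all control peaks. All 10 lay within 500 bp of an annotated start of a protein-coding transcript, and none had a base in any of the other 4 lists, from which 25 of all 64 lost peaks and 38 of all 408 control peaks were absent. Their windows had a median GC content of 62.8%, with a range of 41.0 to 66.2%. The class was formed after the values were seen, and with 13 peaks the interval is wide.

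The widest of them was a peak of 2459 bp at chr1:21111100-21113558 in HP1BP3, a gene for a heterochromatin protein, 234.2 kb from the nearest HIRA knockdown peak. WSB1, a substrate receptor of a ubiquitin ligase, lost one of 1973 bp at chr17:25620322-25622294, and ZNF25, a zinc finger gene, one of 1501 bp at chr10:38264067-38265567. The peak of 1481 bp at chr19:39881015-39882495 reached PAF1 and MED29, which encode subunits of the transcription elongation complex PAF and of Mediator. DCUN1D4, a gene of the neddylation pathway, had 2 control peaks and 0 in each of the other 5 lists, and the one at its start measured 1159 bp.

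The others were narrower. MIB1, a ubiquitin ligase of Notch signalling, had 1026 bp, and PPP2R1A, the scaffold subunit of protein phosphatase 2A, had 588 bp. The shared start of PMS2, a mismatch repair gene, and AIMP2 had 348 bp, that of IFT20 and TNFAIP1 had 312 bp, and ID2, an inhibitor of helix-loop-helix factors, had 197 bp. None of these sites had a HIRA knockdown base.

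The other 3 exonic control peaks were kept. EGR1, an immediate early transcription factor, had 2276 bp in control and 2036 bp after HIRA knockdown, with 1051 shared bases. H3-3B, one of the genes for the histone H3.3 that HIRA carries, had 458 bp and 573 bp, with 360 shared. HSPA13, a member of the Hsp70 family, had 2643 bp in control, of which 1341 were covered after HIRA knockdown. These 3 sites, too, had no base in the other 4 lists.

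New exonic peaks had a lower median GC content. Outside the chromosome 12 segment there were 8, with a median of 36.5%, against 62.8% for the lost ones and 35.1% for all new peaks. Their range of 32.2 to 56.6% overlapped the 41.0 to 66.2% of the lost ones. Of the 8, 3 lay within 500 bp of a protein-coding transcript start, and 3 were in the HIRA list alone. RPS12, a gene for a ribosomal protein, had a new peak of 319 bp, and HEXIM1, an inhibitor of the elongation factor P-TEFb, had one of 218 bp; both were in the HIRA list alone and were named after their values were seen. Over all peaks within 500 bp of a protein-coding start, the control list had 16 covering 17.2 kb, and the HIRA list 8 covering 4.7 kb, the reverse of the order for the lists as a whole. Of the 16, 13 were lost (81.2%), against 15.7% of all control peaks. Of the 8 in the HIRA list, 5 were new (62.5%), against 56.4% of all HIRA knockdown peaks.

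Of the remaining 54 lost peaks, 38 were within 10 kb of a HIRA knockdown peak of any kind, and 30 within 10 kb of one that shared bases with control. The widest was 7664 bp at chr16:34003350-34011013, intergenic, with 0 bases after HIRA knockdown and 7664 after DAXX knockdown. The 10 lost peaks of 8q24 all had bases in the DAXX, HJURP and HIRA with HJURP lists, and 4 of them in the list for HIRA with DAXX. Of all 64 lost peaks, 27, 22, 38 and 17 had bases in these lists in the same order, and of all 408 control peaks 351, 333, 342 and 305. In no other list at all were 25 of the 408 control peaks and 99 of the 848 HIRA knockdown peaks, and of the latter 44 were in the chromosome 12 segment, 6 in PRIM2 and 2 in 8q24.

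Few annotated genes of any kind had a peak, 94 of 64449 after HIRA knockdown (0.146%) and 63 in control (0.0978%), and the genes of the CENP-A pathway are to be read against that. Of 10 genes for CENP-A, its chaperones, HIRA partners and H3.3 found in the annotation, H3-3B alone had a peak, and it was kept. HIRA, on chromosome 22, had none, and neither list had a peak on that chromosome. Of 13 genes for inner kinetochore proteins and CENP-A loading factors, 0 had a peak in either list. The nearest case was CENPC, an inner kinetochore protein that binds CENP-A nucleosomes, whose gene lay 67.7 kb from the nearest peak in each list.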

How the data were processed

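CENP-A ChIP-Seq of SW480 cells was analysed from 2 of the 6 deposited peak lists, each merging 4 ChIP libraries. The authors, per the submitters' processing notes and the study's methods, used Trimmomatic for trimming and Bowtie2 2.2.6 for alignment to hg19, kept alignments of mapping quality 10 or more, a filter that also bears on uniqueness, called peaks with MACS against input and merged peaks seen in at least 3 replicates. SAMtools applied the quality filter and deepTools made browser tracks, which are not used here. The deposited values are peak positions, with no score, read count or replicate, so the precision of a peak is unknown, no replicate could be left out and no test was run. Read totals tabulated by the study, and its repeat at equal read numbers, are not analysed here. The replicate filter and merging can hide or join sites. The double knockdown lists rest on 2 ChIP libraries each, so a filter of at least 3 replicates cannot hold for them.

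Peaks were read as BED intervals, and printed starts count from 1. Overlap of at least 1 base, loci, distances and shares were computed in Python 3.11.15 with numpy 2.4.6, pysam 0.24.0 and scipy 1.17.1 (95% Wilson intervals), drawn with matplotlib 3.10.9, checked against bedtools 2.31.1 and tested on simulated data (200 of 200 interval sets recovered). Chromosome lengths of the GRCh37 reference fit every peak. Genes are from GENCODE release 44 lifted to it. No file held the hg19 bands, whose positions (centromeres and 8q24) were entered from general knowledge, and centromere gaps are runs of at least 2 Mb of N touching a band. Named were the 5 widest new peaks of chromosome 8 and of the rest, the 5 widest lost peaks, the 5 loci with the largest gain and loss, genes with at least 3 new or 2 lost peaks, and 3 gene lists; some of each are printed. Further regions were named after their values were seen and are marked so. Members and lists were chosen with earlier results of these data known.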

Additional observations from a re-analysis of the deposited data

How the results depend on the processing

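The ratios of HIRA knockdown to control stayed above 1 under each setting tried, between 1.91 and 2.22 for the number of peaks and between 1.47 and 1.78 for bases. The share of new peaks was 61.2% when a peak had to be covered by at least 50%, 47.8% with peaks extended by 500 bp on each side, 60.9% with peaks within 1000 bp merged, 60.7% outside the centromere bands and 52.9% without the chromosome 12 segment, a setting chosen after seeing the data. The share of lost peaks was 11.3% with the extension and 19.8% among peaks of at least 500 bp. Widened and narrowed loci numbered 80 and 69 at a ratio of 1.2, and at a ratio of 2 they numbered 33 and 10. At 8q24 the widened share was 73.7% at a ratio of 1.2, where 2 loci were narrowed, and 42.1% at a ratio of 2, settings added after seeing the data. Protein-coding genes alone held 17.2% of new peaks. In settings added after seeing the data, the CENP-B box was in 0.733% of new and 22.4% of shared peaks of at least 500 bp, and in 34.3% of shared peaks without 8q24 and the chromosome 12 segment. The cause of these shifts was not tested. Of 52 alternative values, 35 stayed within the interval or within 1.5 times of the value in the report, and 17 moved. A turn of direction was defined only for the ratios of HIRA knockdown to control, and 0 of them turned. For shares and counts it was not defined.

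No paired analysis was possible because each condition is 1 merged list, and leaving out single replicates was impossible too. The lists hold no reads, so the part of library depth in the ratio of 2.08 was not tested; the study's own sampling at equal read numbers is not analysed here. The part of copy number and of near-identical sequence copies was not tested.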
